A study of Mus musculus with 19 samples.

Results

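Of 19 microarrays of sorted mouse thymocytes, 6 describe how γδ T cells differ from DN3a cells when Raptor is missing: 3 arrays of DN3a thymocytes and 3 of γδ T cells, all titled Raptorfl/fl. They were taken by title alone, with no measured value used, and were set beside the 6 arrays of the same populations from WT mice (3 of each). Every animal was C57BL/6. The samples titled Raptorfl/fl came from mice carrying CD2-cre together with the floxed Raptor alleles and have Rptor-/- in the genotype field, so Rptor-/- is used here. CD2-driven Cre is active in developing lymphocytes generally, not in one thymic stage, and the labels do not say whether the WT mice carried the Cre. No age is given, and nothing in the labels says that the 3 replicates of a group were separate animals. A p-value here therefore sets a difference only against the scatter of these arrays, part of which can be technical. DN3a cells were gated as CD4-, CD8-, TCRγδ-, TCRβ-, CD25 high, CD44- and CD28-. The γδ gate lists CD4-, CD8-, TCRβ-, NK1.1- and Gr1- and does not itself name TCRγδ. A stage difference here is the γδ mean minus the DN3a mean in log2 units (1 unit is a 2-fold difference), comparing sorted populations rather than cells followed over time.

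Raptor is the subunit of mTOR complex 1 (mTORC1) that brings substrates to the kinase, and the complex couples nutrient and growth factor signals to protein, lipid and nucleotide synthesis. DN3 thymocytes rearrange the TCR β, γ and δ genes under Notch signalling. Cells that signal through the pre-TCR multiply and follow the αβ branch, while cells that signal through a γδ TCR leave the DN3 programme, induce early response genes such as Egr1 and Id3, and are then programmed towards IL-17 (Sox13, Maf, Blk) or interferon-γ and cytotoxic genes (Tbx21, Il2rb).

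Both labelled populations carried their markers in the Rptor-/- arrays. The DN3a markers Il2ra, Ptcra, Rag2, Notch1, Notch3 and Dntt were all lower in γδ cells than in DN3a cells in each genotype, and their mean log2 level was 11.30 to 11.38 in DN3a Rptor-/- and 7.92 to 8.18 in γδ Rptor-/- arrays. Sox13, Il2rb, Cd27 and Blk, the measured γδ markers, were higher in γδ cells in each genotype. The γδ constant region genes were not analysed here. Replicates of a group correlated at 0.988 to 0.994 over probe sets. Rptor itself read 9.65, 9.55 and 9.75 in DN3a Rptor-/- against 10.34, 10.21 and 10.16 in DN3a WT, and 9.48, 9.52 and 9.40 in γδ Rptor-/- against 9.79, 9.77 and 9.74 in γδ WT. The groups did not overlap in either population. The genotype difference was −0.58 (SE 0.08) in DN3a cells (limma adjusted p = 0.00253) and −0.30 (SE 0.08) in γδ cells (limma adjusted p = 0.0603, not past the threshold of 0.05). The γδ value passed it with all 19 arrays in 1 model (adjusted p = 0.0489), with the filter on low signal (0.0238) and with a prior variance that follows the mean (0.0158). The exact two-sided permutation test gave p = 0.1 in each population, the smallest that 3 arrays against 3 allow. Where the probe set lies relative to the deleted part is not known, so it is a partial check of the labels.

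Without Raptor, the change of gene expression from DN3a to γδ cells was extensive. Of 22180 genes, 3120 (14.1%) were called higher and 2970 (13.4%) lower in γδ than in DN3a Rptor-/- cells, with limma at an adjusted p under 0.05. In WT, 2792 genes (12.6%) were called higher and 2753 (12.4%) lower. The balance of both directions depended on the scaling: median centring gave 3284 higher and 2475 lower in Rptor-/- and 2503 and 2748 in WT, and quantile scaling 2984 and 3354 in Rptor-/- and 2725 and 3103 in WT. A genotype effect on the stage difference itself (the Rptor-/- stage difference minus the WT one, the interaction of both factors) was called for 97 genes. In 71 of these (0.32% of genes) the difference between the contrasts was positive, and in 26 (0.117%) it was negative. At an unadjusted p under 0.05, limma gave 2072 genes. In bulk samples such as these, fewer cells of a type and less RNA per cell cannot be told apart.

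The stage contrasts of Rptor-/- and WT share no array, and over the 22180 genes they correlated at Pearson r = 0.903 and Spearman rho = 0.702, as a description across genes, which are not independent. Both contrasts had a median near 0, −0.024 in Rptor-/- and −0.0041 in WT, and the median of the difference was −0.010. With median centring the Rptor-/- median was 0.0072 and that of the difference 0.037. The SD over genes was 0.50 in Rptor-/- and 0.465 in WT. Among the 597 genes whose mean stage difference over the genotypes was at least 2-fold higher in γδ cells, the median ratio of the Rptor-/- to the WT log2 difference was 1.06, and among the 326 at least 2-fold lower it was 1.04.

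The 97 genes fell into 3 classes: exaggerated, where the Rptor-/- stage difference was farther from 0 than in WT, weakened, where it was nearer to 0, and opposite, where both were called with opposite signs. In 80 the stage difference was exaggerated without Raptor (61 towards higher in γδ, 19 towards lower), in 10 it was weakened, and in 7 it had the opposite sign. Of the 22180 genes, a further 4209 stage differences (2221 higher and 1988 lower in γδ) were called in both genotypes in the same direction. Their difference was not called. These are named kept, which means only that no difference was called. For 3349 of them (79.6%) the 95% interval of the difference lay within 1.5-fold, and for the rest it reached farther. Kept genes were 69.1% of the genes called in Rptor-/- and 75.9% of those called in WT. These are the shares to set beside the list counts below. Another 1789 genes were called in Rptor-/- alone and 1259 in WT alone, but their difference was not called, so they are not shown to differ between genotypes. The 97 calls became 58 without DN3a WT array 1, 64 without DN3a WT array 2, 63 without γδ Rptor-/- array 2, and 63, 52 and 64 without γδ WT arrays 1, 2 and 3, and the exaggerated class became 46, 51, 45 and 51 without DN3a WT array 1, γδ Rptor-/- array 2, γδ WT array 2 and γδ WT array 3. The weakened class became 4 without DN3a Rptor-/- array 2, DN3a WT array 2 or γδ WT array 1, 6 without γδ Rptor-/- array 2, 20 without γδ Rptor-/- array 3 and 2 without γδ WT array 2. The opposite class became 4 without DN3a Rptor-/- array 1 or DN3a WT array 3, 11 with the filter on low signal and 0 with a 2-fold minimum.

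**Figure D1:**
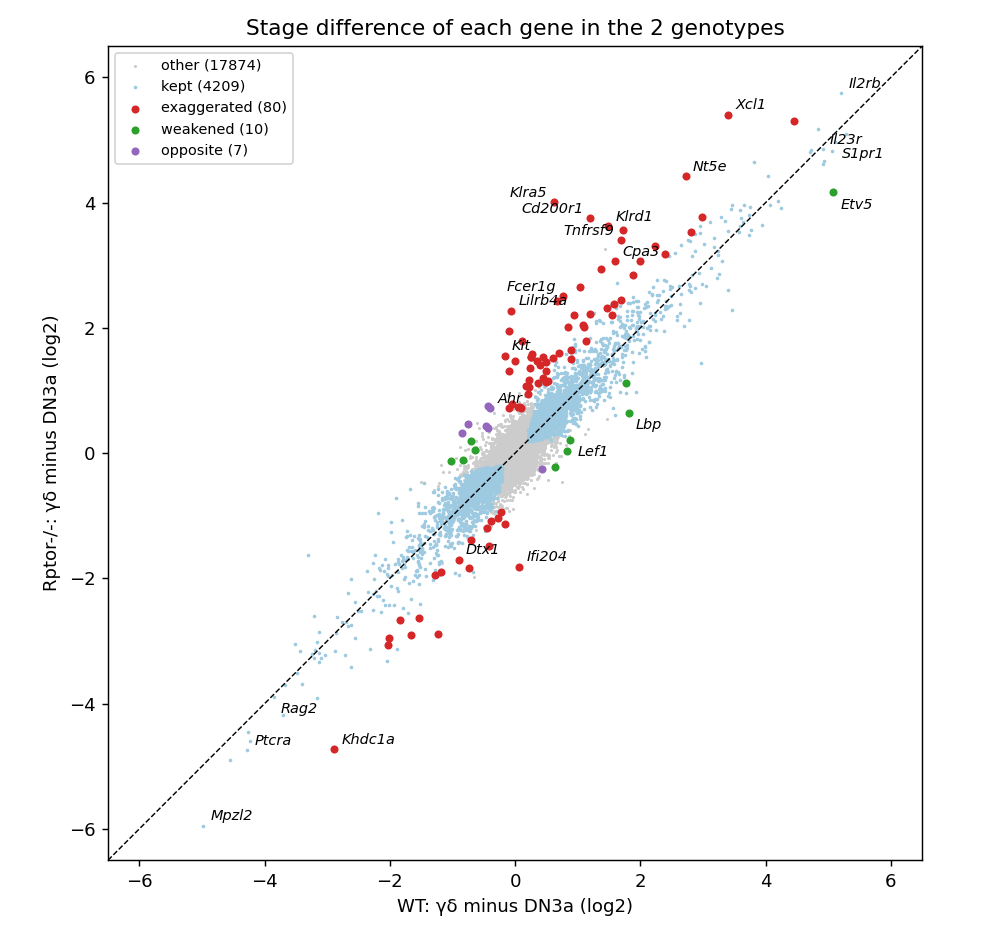
Stage difference (γδ minus DN3a, log2) of each of 22180 genes in WT on the horizontal axis and in Rptor-/- on the vertical axis, coloured by class, with equality as a dashed line. Most points lie along the line, while the 80 exaggerated genes lie farther from 0 on the vertical than on the horizontal axis.

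Most stage differences of DN3 genes were kept. This held for 15 of 22 recombination and pre-TCR genes, 8 of them with the interval within 1.5-fold. Of 23 Notch pathway genes 16 were kept, 13 of them within 1.5-fold. Rag2, a subunit of the V(D)J recombinase, read 8.37, 8.48 and 8.18 in DN3a and 4.56, 4.06 and 4.72 in γδ Rptor-/- arrays, against 7.96, 7.98 and 8.22 and 4.08, 4.07 and 4.45 in WT. The populations were far apart and the genotypes overlapped within each. The stage difference was −3.90 (SE 0.15) in Rptor-/- and −3.85 (SE 0.15) in WT, and the interval of their difference ran from −0.51 to 0.43. Il2ra, which encodes the CD25 used to sort DN3a cells, gave −3.51 and −3.48 (difference interval −0.31 to 0.26). Ptcra, the pre-TCR α chain, read 11.39, 11.46 and 11.42 in DN3a and 6.97, 6.48 and 6.60 in γδ Rptor-/- arrays, a difference of −4.74 (SE 0.12) against −4.28 (SE 0.12) in WT, not called as different (limma adjusted p = 0.395). Mpzl2, an adhesion molecule of the immunoglobulin superfamily, had the most negative stage difference in Rptor-/- among the kept genes named here, −5.95 (SE 0.14) against −4.98 (SE 0.14) in WT. Its difference of −0.96 (SE 0.20) had a limma adjusted p of 0.0647, which became 0.0419 with the filter on low signal and 0.0245 with a prior variance that follows the mean. Of 22 measured recombination and pre-TCR genes, 16 were lower and 2 higher in γδ Rptor-/- cells, against 14 and 2 in WT, and no difference was called (3 higher and 4 lower at an unadjusted p under 0.05). Of 23 Notch pathway genes, 12 were lower and 9 higher without Raptor, against 9 and 8 in WT. The receptors Notch1 (−1.94 against −2.05) and Notch3 (−3.01 against −3.16) had similar values in both genotypes, and Dtx1 was the 1 Notch pathway gene with a called difference. Uaca, in the same list, gave −3.13 (SE 0.19) against −1.88 (SE 0.19), a larger difference of −1.25 (SE 0.27) that was not called (limma adjusted p = 0.075) but was with a prior variance that follows the mean (0.0295).

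S1pr1, Il23r and Il2rb, which gain expression in γδ cells, were kept as well. Of 31 chemokine receptor, adhesion and exit genes 23 were kept, 11 of them with the interval within 1.5-fold. Of 29 cytokine receptor and STAT regulator genes 14 were kept, 9 of them within 1.5-fold. In Rptor-/- 15 of the 29 were called higher and 4 lower, so the kept share of called genes was near that over all genes. S1pr1, the sphingosine phosphate receptor of thymic exit, read 5.49, 5.36 and 5.22 in DN3a and 10.35, 10.29 and 10.33 in γδ Rptor-/- arrays, a difference of 4.97 (SE 0.09) against 5.10 (SE 0.09) in WT (difference interval −0.42 to 0.15). Il23r, a receptor chain for IL-23 on IL-17-producing γδ cells, read 4.36, 4.36 and 4.38 and 9.45, 8.83 and 9.37 in the same arrays, a difference of 4.85 (SE 0.14) against 4.91 (SE 0.14). Neither gene's DN3a and γδ arrays overlapped in either genotype. Il2rb, the β chain of the IL-2 and IL-15 receptors, was higher in γδ cells by 5.74 (SE 0.10) without Raptor and by 5.21 (SE 0.10) in WT, and its difference of 0.53 (SE 0.13) was not called (limma adjusted p = 0.147). Samhd1, a dNTP hydrolase, gave 4.84 and 4.73, and P2rx7, an ATP-gated channel, 4.03 and 4.20. Cd226, an activating adhesion receptor, gave 5.17 and 4.84.

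Most readouts of TCR signalling were higher in γδ cells of both genotypes. Of 35 TCR signal strength and early response genes, 29 were higher and 3 lower in γδ Rptor-/- cells (list median 1.40), and 29 were higher and 4 lower in WT (median 1.09). The differences of 30 were kept, 18 of them with the interval within 1.5-fold, and Fosl2 and Tnfrsf9 were exaggerated. Egr1, an immediate early factor, gave 1.69 and 1.67, and Id3, an inhibitor of E proteins, 2.60 and 2.77. Cd5, a surface gauge of TCR signal, gave 2.63 and 2.87. Nr4a1, an orphan nuclear receptor induced by the TCR, gave 3.38 and 2.79, with a difference of 0.59 (SE 0.20) that was not called (limma adjusted p = 0.342).

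Of 30 measured genes of the γδ IL-17 programme, 24 were higher and 5 lower without Raptor (median 1.49), and 21 were higher and 4 lower in WT (median 1.38). The transcription factor Maf gave 3.92 and 4.25, the kinase Blk 3.92 and 3.75, and Sox13 2.13 and 2.78. The difference for Sox13, −0.65 (SE 0.16), was not called (limma adjusted p = 0.148). In this list 22 stage differences were kept, 12 of them with the interval within 1.5-fold. A further 3 genes differed, each in its own way: Zbtb16 was exaggerated, Etv5 weakened and Ahr opposite.

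Receptors of the natural killer complex included the largest exaggerated difference. Klra5, a Ly49 family receptor, read 3.55, 3.45 and 4.22 in DN3a and 7.38, 8.07 and 7.80 in γδ Rptor-/- arrays, and 4.15, 4.12 and 3.69 and 4.69, 4.78 and 4.36 in WT. The 3 γδ Rptor-/- arrays stood above the other 9, and the 2 DN3a groups overlapped. Its stage difference was 4.01 (SE 0.21) without Raptor and 0.62 (SE 0.21) in WT, a difference of 3.39 (SE 0.29) (limma adjusted p = 6.16e-05) that ranged from 3.23 to 3.63 when each array was left out.

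Klrd1 (CD94), which pairs with NKG2 chains, read 4.26, 3.95 and 3.87 in DN3a and 7.96, 7.56 and 7.44 in γδ Rptor-/- arrays, and 4.13, 4.01 and 4.05 and 5.67, 5.56 and 5.43 in WT. It was higher in γδ cells of both genotypes, and again the γδ Rptor-/- arrays were highest. The stage difference was 3.63 (SE 0.13) against 1.49 (SE 0.13), differing by 2.14 (SE 0.18) (limma adjusted p = 6.16e-05). Klrh1, a lectin-like receptor gene of the same complex, read 6.13, 6.03 and 5.70 in γδ Rptor-/- arrays, with the other 9 arrays between 3.91 and 4.42. Its difference was 2.06 (SE 0.18) (limma adjusted p = 6.74e-05), with no called stage difference in WT (−0.11).

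Across the 22 measured natural killer complex genes, 8 were higher and none lower in γδ cells in each genotype, and these 3 had a called difference. The WT count became 5 without DN3a WT array 2 or 3. The list's median difference was 0.07. The filter on low signal left 6 of the 22 genes, of which 4 were higher and 2 had a called difference. Klra5 and Klrh1 have close relatives, and their probe sets may pick up more than 1 family member. Of the 7 measured NK cell markers, Cd244a was exaggerated, with 1.31 (SE 0.14) against −0.09 (SE 0.14) in WT, and the others had no called difference. Ncr1 lay between 4.95 and 5.37 and Klrb1c, the NK1.1 antigen excluded by the gate, between 4.57 and 5.53 on all 12 arrays. The mean over the 7 measured NK cell markers was 5.72 to 5.84 in γδ Rptor-/- and 5.64 to 5.71 in γδ WT arrays, and 5 of the 7 were called higher in γδ cells without Raptor and 3 in WT. The part of other cells in these results was not tested.

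**Figure D2:**
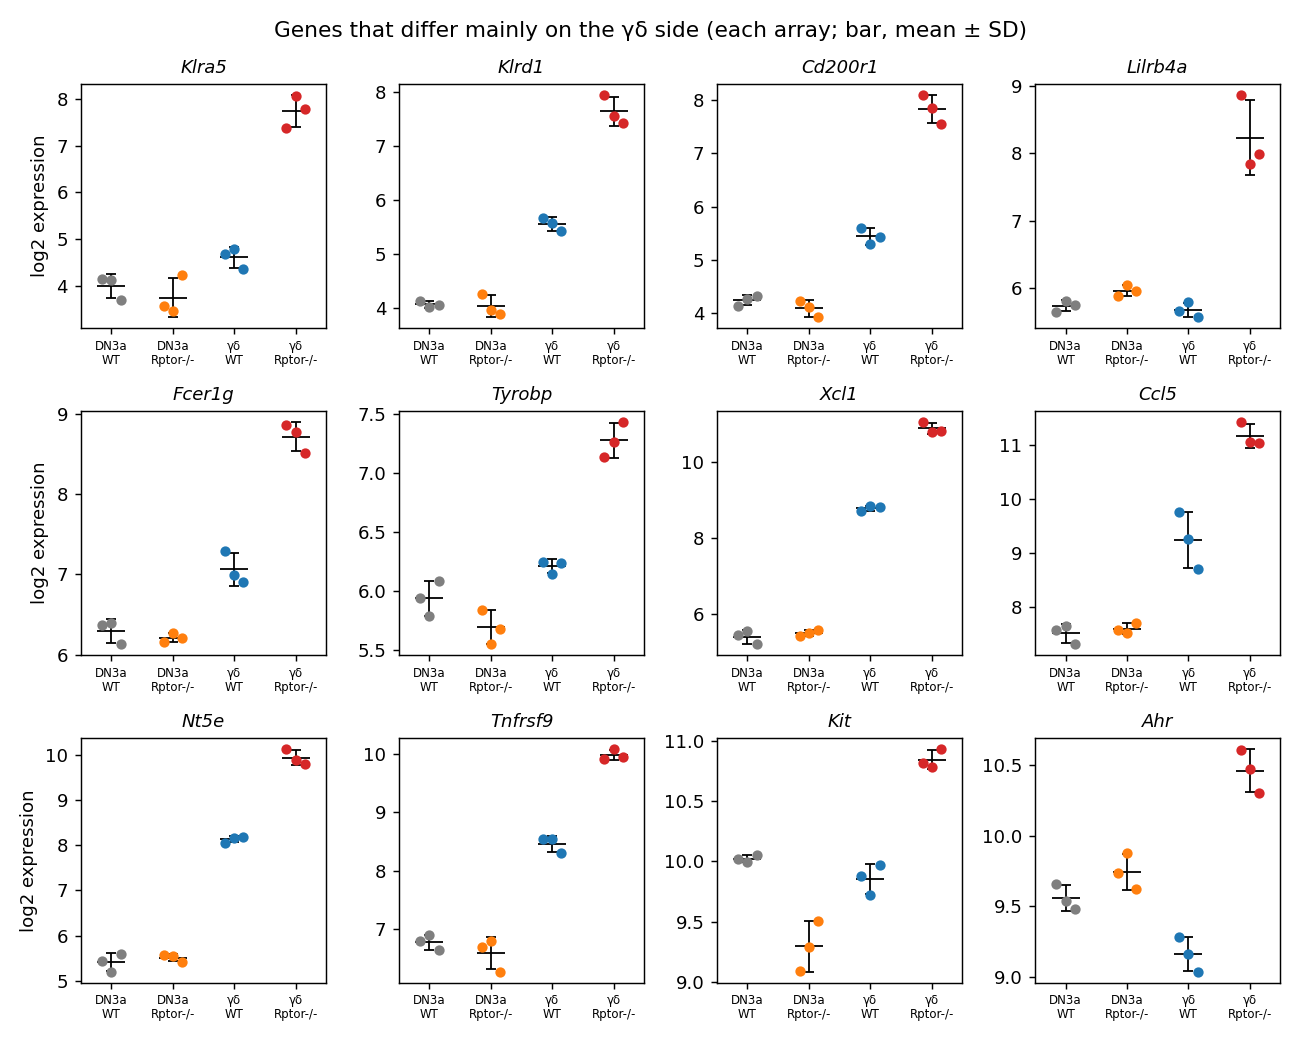
Log2 signal of 12 genes on each of 12 arrays (points), with mean and SD of the 3 arrays of each group. The γδ Rptor-/- arrays stand above the other 3 groups for every gene shown, and the DN3a groups overlap for all but Kit, where DN3a Rptor-/- is lowest, and Lilrb4a.

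Signalling adaptors and inhibitory receptors formed the list with the most called differences, 7 of 24 measured genes, all positive. The lists were chosen with earlier results of these data known, so this rank is not independent of them. The CD200 receptor genes in it may also share signal, as given below. In Rptor-/- 17 of the 24 were higher and 3 lower in γδ cells (median 1.46), while in WT 12 were higher and 3 lower (median 0.28). The median difference was 0.29 beside −0.010 over all genes, and 6 to 8 of the genes were called when each array was left out.

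Fcer1g, the Fc receptor γ chain that carries an ITAM signalling motif, read 6.16, 6.27 and 6.20 in DN3a and 8.86, 8.77 and 8.51 in γδ Rptor-/- arrays, and 6.38, 6.39 and 6.13 and 7.29, 6.99 and 6.90 in WT. The γδ arrays of the genotypes did not overlap. The stage difference was 2.50 (SE 0.12) against 0.77 (SE 0.12) (difference 1.74 (SE 0.16), limma adjusted p = 1.19e-04). Tyrobp (DAP12), the other ITAM adaptor of natural killer receptors, read 5.84, 5.55 and 5.68 in DN3a and 7.13, 7.26 and 7.43 in γδ Rptor-/- arrays, with the 6 WT arrays between 5.79 and 6.25. The stage difference was 1.58 (SE 0.10) without Raptor and 0.28 (SE 0.10) in WT, where it was not called (limma adjusted p = 0.0683), and the difference was 1.31 (SE 0.15) (limma adjusted p = 5.61e-04).

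Cd200r1, an inhibitory receptor for CD200, read 4.23, 4.10 and 3.92 in DN3a and 8.09, 7.85 and 7.56 in γδ Rptor-/- arrays, and 4.13, 4.26 and 4.31 and 5.60, 5.29 and 5.42 in WT. All 3 γδ Rptor-/- arrays lay above every γδ WT array. The stage difference of 3.75 (SE 0.13) exceeded that of WT, 1.20 (SE 0.13), by 2.55 (SE 0.18) (limma adjusted p = 1.34e-05). Its activating relative Cd200r4 had a stage difference of 1.47 (SE 0.13) without Raptor and −0.01 (SE 0.13) in WT (difference 1.48 (SE 0.19), limma adjusted p = 0.00169). Cd200r2 gave a difference of 1.68 (SE 0.28) (limma adjusted p = 0.0161), not called without DN3a WT array 1, γδ WT array 2 or γδ WT array 3 (adjusted p up to 0.0623, value 1.38 to 1.92). The CD200 receptor genes are near copies of each other and their probe sets may not separate them.

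Lilrb4a, an inhibitory immunoglobulin-like receptor, read 5.89, 6.04 and 5.96 in DN3a and 8.87, 7.84 and 7.99 in γδ Rptor-/- arrays, with the 6 WT arrays between 5.58 and 5.81. It had no called stage difference in WT (−0.06 (SE 0.19)), and 2.27 (SE 0.19) without Raptor (difference 2.34 (SE 0.27), limma adjusted p = 7.12e-04). Its probe set may also read a neighbouring copy. Cd244a (2B4), a SLAM family receptor that is also among the NK cell markers, gave 1.31 (SE 0.14) and −0.09 (SE 0.14) (difference 1.40 (SE 0.19), limma adjusted p = 0.00325). Not every inhibitory receptor did so: Pdcd1 (PD-1) was 3.56 and 3.77, and Ctla4 −2.74 and −2.61, with no called difference.

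Type 1 effector genes were higher in γδ cells of both genotypes, 25 of 34 without Raptor (1 lower, median 0.87) and 20 of 34 in WT (1 lower, median 0.65). Of the 34 genes 17 were kept, but only 6 of these had the interval within 1.5-fold. The difference was positive for 15 and negative for 3 at an unadjusted limma p under 0.05. The 4 exaggerated genes were Xcl1, Ccl5, Nt5e and Cst7. Cst7, a cystatin of cytotoxic cells, gave 2.38 against 1.58 (limma adjusted p of the difference = 0.0275), held only without DN3a Rptor-/- array 2, DN3a WT arrays 2 or 3 or γδ Rptor-/- arrays 1 or 3 (adjusted p up to 0.0831 without the others). Xcl1, a chemokine of activated T and natural killer cells, read 5.41, 5.50 and 5.57 in DN3a and 11.06, 10.80 and 10.82 in γδ Rptor-/- arrays, and 5.43, 5.55 and 5.19 and 8.71, 8.84 and 8.81 in WT. It had the largest stage difference of the exaggerated genes, 5.40 (SE 0.10) against 3.40 (SE 0.10) (difference 2.0, SE 0.14, limma adjusted p = 1.34e-05). Ccl5 (RANTES), a chemokine of effector T cells, read 7.58, 7.52 and 7.71 and 11.43, 11.05 and 11.04 in Rptor-/-, and 7.58, 7.66 and 7.31 and 9.77, 9.26 and 8.72 in WT, where γδ replicates were spread over about 1 unit. The γδ arrays of the genotypes did not overlap, and the difference was 1.84 (SE 0.28) (limma adjusted p = 0.0067). Nt5e (CD73), an ecto-enzyme that makes adenosine and is a marker of γδ commitment, read 5.56, 5.56 and 5.42 and 10.12, 9.89 and 9.79 in Rptor-/-, and 5.44, 5.21 and 5.59 and 8.06, 8.17 and 8.19 in WT. From DN3a to γδ it gained 4.42 (SE 0.11) against 2.73 (SE 0.11) (difference 1.70 (SE 0.15), limma adjusted p = 6.74e-05). The cytokine Ifng, named outside the ranking with Tbx21 as textbook genes of this programme, gave 0.56 and 0.16 and the factor Tbx21 0.83 and 0.44, and their differences of 0.40 and 0.38 were not called.

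Among 23 TNF receptor family and costimulatory genes, 19 were higher and none lower in γδ Rptor-/- cells (median 1.19), against 16 higher and 1 lower in WT (median 1.04). Tnfrsf9 (4-1BB), a costimulator induced by TCR signals, read 6.70, 6.79 and 6.27 in DN3a and 9.91, 10.09 and 9.95 in γδ Rptor-/- arrays, and 6.79, 6.89 and 6.64 and 8.55, 8.54 and 8.31 in WT. The γδ Rptor-/- arrays were the highest 3 of the 12. The difference was 1.70 (SE 0.18) (limma adjusted p = 2.68e-04). Tnfsf8 (CD30 ligand) gave 2.65 (SE 0.14) against 1.04 (SE 0.14) (difference 1.61 (SE 0.20), limma adjusted p = 0.00169), the opposite direction to its receptor Tnfrsf8, described with the genes that fell more. Tnfrsf8 was not a member of this list, so its lower γδ level and its called difference are not in these counts. The remaining stage differences of the list were not called as different.

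Kit and Cpa3 stood apart from the genes above because DN3a cells took part in their difference. Kit, the stem cell factor receptor of early thymic progenitors, read 9.09, 9.29 and 9.51 in DN3a and 10.82, 10.78 and 10.94 in γδ Rptor-/- arrays, and 10.02, 9.998 and 10.06 and 9.88, 9.72 and 9.97 in WT. The DN3a Rptor-/- arrays were the lowest 3 and the γδ Rptor-/- arrays the highest 3 of the 12. WT had no called stage difference (−0.17 (SE 0.10)), whereas Rptor-/- had 1.55 (SE 0.10) (difference 1.72 (SE 0.14), limma adjusted p = 6.16e-05). Within populations, Kit was −0.73 (SE 0.10) in DN3a (limma adjusted p = 0.00317) and 0.99 (SE 0.10) in γδ cells (limma adjusted p = 1.06e-04).

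Cpa3, a protease of mast cells and early progenitors, read 8.15, 8.62 and 8.31 in DN3a and 11.33, 11.44 and 11.51 in γδ Rptor-/- arrays, and 10.28, 10.20 and 10.22 and 11.90, 11.81 and 11.79 in WT. Here the γδ Rptor-/- arrays lay below γδ WT, and the larger stage difference, 3.07 (SE 0.10) against 1.59 (SE 0.10), came with lower DN3a levels (−1.88 (SE 0.10), limma adjusted p = 8.75e-07). The difference of the contrasts was 1.47 (SE 0.15) (limma adjusted p = 1.97e-04). With Fcer1g and Tyrobp, these genes made up the 4 of 25 early progenitor genes with a called difference. Other progenitor genes had little stage difference in either genotype, as Flt3 (0.04 and −0.02).

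Several regulators that rise from DN3a to γδ cells were higher still without Raptor. Zbtb16 (PLZF), the factor of innate-like T cells, read 9.64, 9.51 and 9.45 in γδ Rptor-/- and 8.74, 8.81 and 8.84 in γδ WT arrays, with the 6 DN3a arrays between 5.91 and 6.08. Its stage difference was 3.53 (SE 0.08) against 2.81 (SE 0.08) (difference 0.71 (SE 0.11), limma adjusted p = 0.0103). Fosl2, an AP-1 subunit, gave 2.22 (SE 0.11) against 1.20 (SE 0.11) (difference 1.02 (SE 0.16), limma adjusted p = 0.00902), and Cd7, an immunoglobulin superfamily receptor, 5.31 (SE 0.08) against 4.45 (SE 0.08) (difference 0.86 (SE 0.12), limma adjusted p = 0.00344). With all 19 arrays in 1 model, Zbtb16 and Cd7 were not called (adjusted p = 0.0624 and 0.386). Il10rb, the shared chain of the IL-10 receptor family, gave 2.32 against 1.47 (limma adjusted p = 0.00325). Here DN3a cells took part as well. The Il10rb level in DN3a cells was lower without Raptor (−0.38), a call lost without any 1 DN3a array (limma adjusted p up to 0.209). Adh1, an alcohol and retinol dehydrogenase, read 7.14, 7.75 and 7.13 in γδ Rptor-/- arrays, with the other 9 between 4.66 and 5.64 (difference 1.76 (SE 0.24), limma adjusted p = 0.00271). The chemokine receptor Cxcr6 gave 3.18 against 2.40 (limma adjusted p = 0.0424), held only without DN3a Rptor-/- array 1 or DN3a WT array 2 (adjusted p up to 0.108, difference 0.67 to 0.88) and not called with 19 arrays (0.102) or quantile scaling (0.0537).

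Over all 61 genes exaggerated towards higher γδ levels, the median stage difference was 1.79 without Raptor and 0.67 in WT, and the difference ran from 0.61 to 3.39. In 19 of them WT had no called stage difference, and 34 of the 61 held without each of the 12 arrays. Named after their values were seen, 5 further genes of those 34 were Arhgap20, a RhoGAP (1.57 (SE 0.15)), Gpr55, a lipid-sensing G protein-coupled receptor (1.28 (SE 0.16)), the AP-1 family factor Batf3 (0.90 (SE 0.13)), the retinoic acid receptor Rarg (0.90 (SE 0.11)) and Smad7, an inhibitor of TGF-β signalling (0.74 (SE 0.11)). Of the genes described above, Klra5, Klrd1, Klrh1, Cd200r1, Cd200r4, Lilrb4a, Cd244a, Fcer1g, Tyrobp, Xcl1, Ccl5, Nt5e, Tnfrsf9, Tnfsf8, Kit, Cpa3, Zbtb16, Fosl2, Cd7, Il10rb and Adh1 were among the 34.

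The promoters of the exaggerated genes with higher γδ levels were read from RefSeq (GRCm38.p6), from 250 bases before to 50 after the start, as a description with no test. Of the 61 genes, 42 had a promoter there. The RUNX core TGTGGT, searched on both strands, was in 13 of 42 (31.0%), beside 16.6% of all 16990 promoters and 15.6% of the 3362 promoters of kept genes. The other motifs searched were AP-1 (TGANTCA) in 6 of 42 (14.3% beside 8.42% of all), NFAT (TGGAAA) in 14 of 42 (33.3% beside 22.4%), the E-box (CAGNTG) in 24 of 42 (57.1% beside 52.3%) and EGR (GCGTGGGCG) in 0 of 42 (beside 0.983%). Among the 42 promoters, those of Xcl1, Cpa3, Fcer1g, Tnfrsf9 and Cxcr6 held the RUNX letters. The stretch before the start was searched for Xcl1, Cpa3, Fcer1g and Tnfrsf9. Xcl1 and Cpa3 are shown because only they held the letters wholly within those 250 bases. They differ in which population moves. The capitals mark ACCACA, the reverse complement of TGTGGT, 227 bases before the Xcl1 start (GRCm38.p6, chr1:164935724-164935769, minus strand) and 73 bases before the Cpa3 start (chr3:20242229-20242274, minus strand), each in the gene's own direction.
Xcl1: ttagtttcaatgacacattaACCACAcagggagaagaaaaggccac
Cpa3: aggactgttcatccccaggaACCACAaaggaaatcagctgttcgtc

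The 19 genes that fell further from DN3a to γδ cells without Raptor had a median stage difference of −1.83 in Rptor-/- and −0.90 in WT. Ifi204, an interferon-inducible gene, read 5.33, 5.78 and 5.16 in DN3a and 3.27, 3.43 and 4.12 in γδ Rptor-/- arrays, and 3.73, 3.43 and 3.46 and 3.97, 3.48 and 3.35 in WT. The DN3a Rptor-/- arrays stood above the other 9, which overlapped. WT had no called stage difference (0.06 (SE 0.21)) and Rptor-/- had −1.81 (SE 0.21) (difference −1.87 (SE 0.30), limma adjusted p = 0.0113). It belongs to a cluster of close relatives that the probe set may not separate.

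Tnfrsf8 (CD30), a TNF receptor, read 9.42, 9.45 and 9.61 in DN3a and 6.75, 6.43 and 6.59 in γδ Rptor-/- arrays, and 8.45, 8.29 and 8.52 and 6.97, 6.43 and 6.87 in WT. The DN3a groups were apart and the γδ groups overlapped. The stage difference was −2.90 (SE 0.13) against −1.67 (SE 0.13) (difference −1.24 (SE 0.18), limma adjusted p = 0.00589). Ogdhl, a relative of the oxoglutarate dehydrogenase subunit, read 7.80, 7.96 and 7.56 and 6.10, 5.98 and 5.74 in Rptor-/-, and 6.59, 6.65 and 6.31 and 5.80, 5.71 and 5.84 in WT. This gave −1.83 (SE 0.12) against −0.73 (SE 0.12) (difference −1.10 (SE 0.17), limma adjusted p = 0.00902).

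Vwce, a von Willebrand domain protein, gave −3.06 (SE 0.11) against −2.02 (SE 0.11) (difference −1.04 (SE 0.15), limma adjusted p = 0.00615), and Myof (myoferlin), a membrane repair protein, −2.95 (SE 0.10) against −2.01 (SE 0.10) (difference −0.94 (SE 0.15), limma adjusted p = 0.00939). Ets2, an ETS family transcription factor, read 10.16, 10.15 and 10.08 in DN3a and 8.76, 9.02 and 9.02 in γδ Rptor-/- arrays, and 9.02, 8.97 and 9.14 and 8.61, 8.55 and 8.64 in WT. In both populations the Rptor-/- arrays lay above WT, more so in DN3a cells, and the stage difference was −1.20 (SE 0.09) against −0.44 (SE 0.09) (difference −0.76 (SE 0.12), limma adjusted p = 0.0104).

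Some of these calls were near the threshold and were lost without any of several arrays, while the value kept its sign. Khdc1a, a KH domain gene, read 10.68, 10.75 and 9.75 in DN3a and 5.68, 5.45 and 5.86 in γδ Rptor-/- arrays, and 8.92, 8.83 and 8.35 and 5.67, 6.13 and 5.65 in WT. Its difference of −1.84 (SE 0.33) (limma adjusted p = 0.0244) was −2.16 to −1.66 with 1 array left out and not called without DN3a Rptor-/- arrays 1 or 2, DN3a WT array 3, γδ Rptor-/- array 2 or γδ WT arrays 2 or 3 (adjusted p up to 0.0754). Its near copy Khdc1c gave −1.65 (SE 0.30) (limma adjusted p = 0.0244) and was not called without DN3a Rptor-/- arrays 1 or 2, DN3a WT arrays 1 or 3, or γδ WT arrays 1 or 2 (adjusted p up to 0.0833), and their probe sets may read both.

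Ifitm3, an interferon-induced membrane protein, gave −1.07 (SE 0.19) (limma adjusted p = 0.0218), not called without DN3a Rptor-/- arrays 1 or 3, DN3a WT arrays 1 or 3, or any 1 γδ WT array (adjusted p up to 0.0678), nor with quantile scaling (0.0507). Dtx1, an E3 ligase induced by Notch, read 10.90, 10.67 and 10.54 in DN3a and 9.21, 8.90 and 8.89 in γδ Rptor-/- arrays, and 9.28, 9.38 and 9.32 and 8.48, 8.45 and 8.35 in WT. It was higher without Raptor in both populations, and its difference of −0.80 (SE 0.15) (limma adjusted p = 0.0317) was held only without DN3a Rptor-/- array 3 or γδ Rptor-/- array 1 and lost without each of the other 10 (adjusted p up to 0.0928, value −0.91 to −0.71). Uhrf1, a partner of maintenance DNA methylation, gave −1.94 against −1.27 in WT (difference −0.67 (SE 0.13), limma adjusted p = 0.0424), a call held only without DN3a Rptor-/- array 1 or γδ Rptor-/- array 3 (adjusted p up to 0.129 without the others, value −0.74 to −0.59) and lost with median centring (0.0979).

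**Figure D3:**
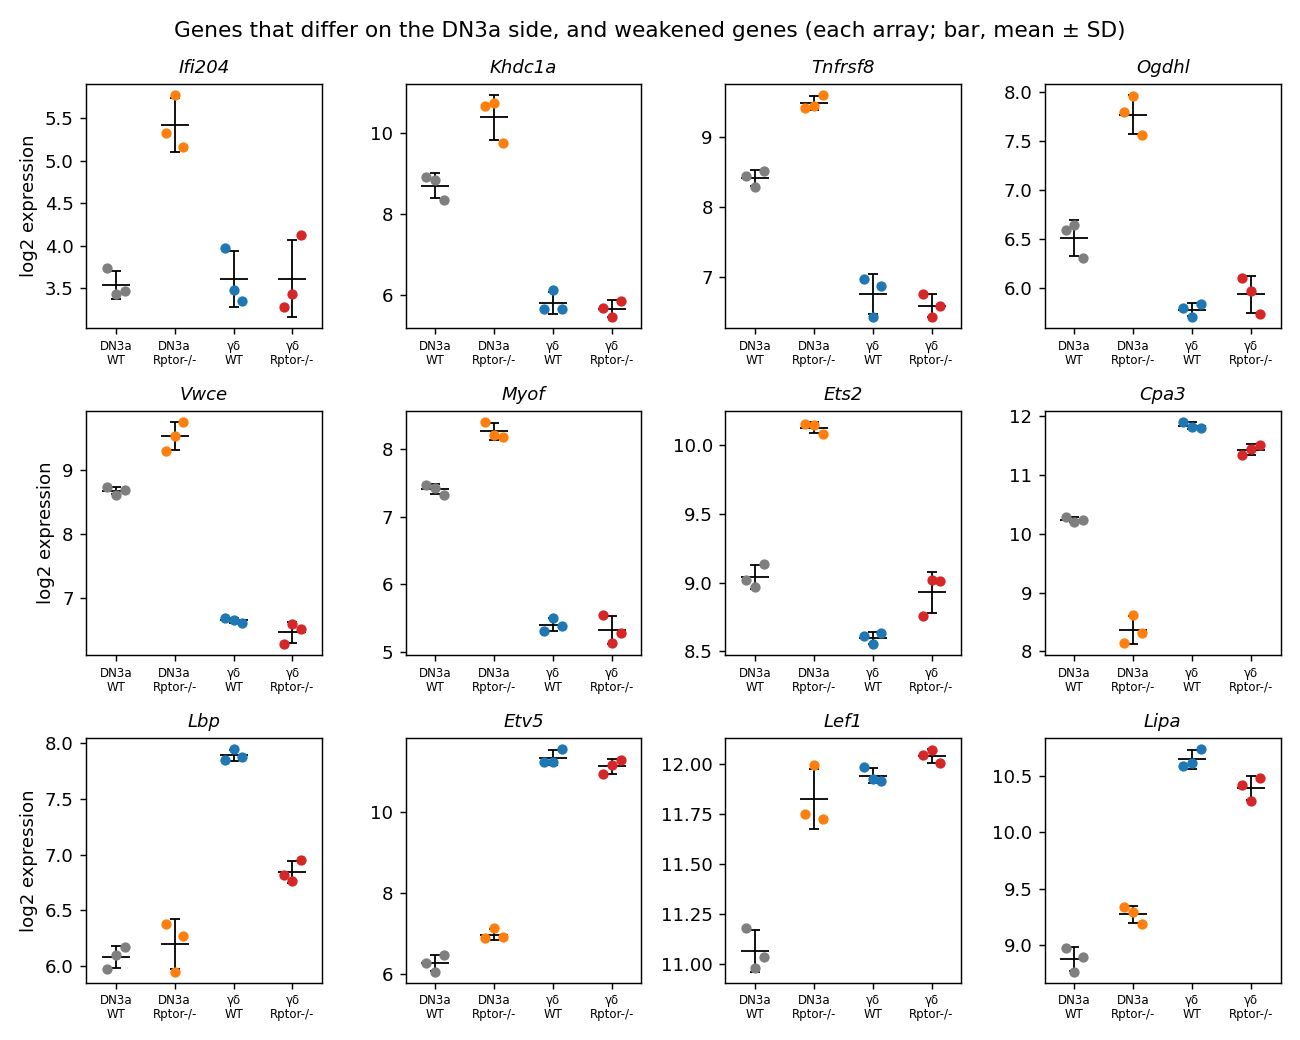
Log2 signal of 12 genes on each of 12 arrays (points), with mean and SD of the 3 arrays of each group. For Ifi204, Khdc1a, Tnfrsf8, Ogdhl, Vwce, Myof, Etv5 and Lef1 the genotypes differ mainly in DN3a cells, Cpa3 is lowest in DN3a Rptor-/- cells, and Lbp differs in γδ cells.

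Stage differences were weakened for 10 genes, and the weakening of Lbp was the 1 that held without each of the 12 arrays. Lbp, a lipopolysaccharide-binding protein, read 6.38, 5.95 and 6.27 in DN3a and 6.82, 6.76 and 6.96 in γδ Rptor-/- arrays, and 5.97, 6.10 and 6.17 and 7.85, 7.95 and 7.88 in WT. The γδ Rptor-/- arrays lay between both DN3a groups and γδ WT. The stage difference was 0.65 (SE 0.11) against 1.81 (SE 0.11) (difference −1.17 (SE 0.15), limma adjusted p = 0.00169, −1.29 to −1.07 with 1 array left out).

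Etv5, an ETS factor of the γδ IL-17 programme, read 6.87, 7.12 and 6.90 in DN3a and 10.94, 11.15 and 11.29 in γδ Rptor-/- arrays, and 6.27, 6.05 and 6.47 and 11.23, 11.24 and 11.55 in WT. Its large stage difference remained in Rptor-/-, 4.16 (SE 0.13) against 5.08 (SE 0.13), and DN3a Rptor-/- arrays were above DN3a WT while the γδ groups overlapped. The difference of −0.91 (SE 0.18) (limma adjusted p = 0.0424) held only without DN3a WT array 3 or γδ Rptor-/- array 3 (adjusted p up to 0.122 without the others, value −1.02 to −0.81). It was −0.57 and not called with the mean of all probe sets of the gene (adjusted p = 0.279), and not called with 19 arrays (0.215), median centring (0.0588) or quantile scaling (0.0591).

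Lef1, a factor of the TCF family needed in early T cells, read 11.75, 12.00 and 11.72 in DN3a and 12.05, 12.07 and 12.00 in γδ Rptor-/- arrays, and 11.18, 10.98 and 11.03 and 11.98, 11.93 and 11.92 in WT. DN3a Rptor-/- cells were near the γδ level, and the stage difference was 0.22 (SE 0.09), not called (limma adjusted p = 0.0825), against 0.88 (SE 0.09) in WT. That Rptor-/- difference was called with 19 arrays (0.0448), quantile scaling (0.0122), the filter on low signal (0.0405) and a prior variance that follows the mean (0.0142). The difference of −0.66 (SE 0.12) (limma adjusted p = 0.0317) held without DN3a Rptor-/- arrays 1 or 3, DN3a WT array 1 or γδ Rptor-/- array 1 and was lost without each of the other 8 (adjusted p up to 0.108, value −0.72 to −0.57), as with median centring (0.053) and quantile scaling (0.0569).

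Lipa, the lysosomal acid lipase, gave 1.12 (SE 0.09) against 1.77 (SE 0.09) (difference −0.64 (SE 0.12), limma adjusted p = 0.0362), a call held without DN3a Rptor-/- array 3, DN3a WT array 1 or γδ Rptor-/- arrays 1 or 3 and lost without each of the other 8 (adjusted p up to 0.121, value −0.69 to −0.59) or with quantile scaling (0.0537). Syt13, a synaptotagmin, gave 0.03 against 0.83 (limma adjusted p of the difference = 0.013) and was lost without γδ WT array 2 (adjusted p = 0.0512, value between −0.86 to −0.73 over all 12). Krt222, a keratin-like gene, gave −0.23 against 0.64 (limma adjusted p of the difference = 0.0175) and was lost without DN3a Rptor-/- array 2, DN3a WT array 2 or γδ WT arrays 1 or 2 (adjusted p up to 0.0623).

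The remaining weakened transcripts were the non-coding Snhg4 (−0.10 against −0.84) and the predicted genes Gm4759 (0.05 against −0.64) and Gm9199 (−0.13 against −1.03), named to complete the class, and Mir181a-2.

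Mir181a-2, 1 of the loci of miR-181a, a microRNA that sensitises TCR signalling in thymocytes, is named after its values were seen. It read 6.65, 6.82 and 6.63 in DN3a and 7.07, 6.84 and 6.77 in γδ Rptor-/- arrays, and 7.70, 7.40 and 7.41 and 6.60, 6.77 and 7.02 in WT. The DN3a WT arrays were the highest 3 of the 12, and the other groups overlapped. In WT it fell by 0.71 from DN3a to γδ cells, while Rptor-/- had 0.19 (SE 0.12) (difference 0.90 (SE 0.17), limma adjusted p = 0.0343). That call held only without γδ Rptor-/- array 3 or γδ WT array 3 (adjusted p up to 0.0953 without the others, value 0.80 to 1.01). The probe set reads the locus and not the mature molecule. The mature sequence is shown to identify that microRNA, from RefSeq (GRCm38.p6, chr2:38852741-38852763, plus strand), with the seed, bases 2 to 8, in capitals.
mmu-miR-181a-5p: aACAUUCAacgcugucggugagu

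In 7 genes the stage difference changed sign, and for 4 of them (Adamtsl2, Ahr, Ttyh2 and Gm5797) the difference was called without each of the 12 arrays. Ahr, the aryl hydrocarbon receptor, a ligand-activated factor of IL-17-producing and tissue-resident lymphocytes, read 9.73, 9.87 and 9.62 in DN3a and 10.61, 10.48 and 10.30 in γδ Rptor-/- arrays, and 9.66, 9.54 and 9.48 and 9.28, 9.16 and 9.04 in WT. In Rptor-/- every γδ array was above every DN3a array, and in WT every γδ array was below. Its stage difference was 0.72 (SE 0.10) without Raptor (limma adjusted p = 6.46e-05) and −0.40 (SE 0.10) in WT (limma adjusted p = 0.00815), a difference of 1.12 (SE 0.14) (limma adjusted p = 0.00169) that held without each array (1.04 to 1.20).

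Adamtsl2, a secreted matrix protein, read 8.29, 8.64 and 8.56 in DN3a and 8.86, 8.85 and 8.73 in γδ Rptor-/- arrays, and 8.75, 8.70 and 8.48 and 7.76, 7.80 and 7.81 in WT, with γδ WT the lowest group. This gave 0.31 (SE 0.10) against −0.85 (SE 0.10) (limma adjusted p of the difference = 0.00119). Sntb1, a syntrophin of the dystrophin complex, gave 0.75 against −0.44 (limma adjusted p of the difference = 0.0159, lost without DN3a WT array 1 or γδ WT arrays 1 or 2, up to 0.0593). Ttyh2, a Tweety family membrane protein, was the 1 gene of the 7 that fell without Raptor (−0.26 (SE 0.08), limma adjusted p = 0.0254) and rose in WT (0.43 (SE 0.08)), a difference of −0.69 (SE 0.11) (limma adjusted p = 0.0115). The WT stage call of Sntb1 was lost without DN3a WT arrays 1 or 3 or γδ WT arrays 1 or 2 (adjusted p up to 0.15). The Rptor-/- stage call of Adamtsl2 was lost without DN3a Rptor-/- array 1 or γδ Rptor-/- arrays 1 or 2 (0.21 to 0.30, adjusted p up to 0.127), and that of Ttyh2 without DN3a Rptor-/- array 2 or γδ Rptor-/- arrays 1 or 3 (−0.25 to −0.19, adjusted p up to 0.111). The class was completed by Gm5797, Gm7265 and Vmn2r55, predicted or receptor-like genes higher in γδ cells without Raptor and lower in WT. Adamtsl2 and Ttyh2 were also lost on the 6 Rptor-/- arrays alone (adjusted p = 0.0656 and 0.0834).

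In both exaggerated groups the larger genotype difference lay mostly in the population with the higher Rptor-/- level. By the class rule all 61 rose and all 19 fell from DN3a to γδ in Rptor-/-. A low level in the other population can hide a difference there, so the split is partly built in. These genotype differences use the same 12 arrays as the difference of the contrasts, so they describe where it lies and add no support. Of the 61 genes exaggerated towards higher γδ levels, 55 had the larger genotype difference in γδ cells and 6 in DN3a cells. Of the 19 exaggerated towards lower γδ levels, 17 had it in DN3a cells and 2, Uhrf1 and 1500009L16Rik, in γδ cells. Over all genes, Rptor-/- against WT was called higher for 161 genes (0.726%) and lower for 60 (0.271%) in DN3a cells, and higher for 397 (1.79%) and lower for 221 (0.996%) in γδ cells. Median centring gave 522 higher and 146 lower in γδ cells, and quantile scaling 350 and 302 in γδ cells and 132 and 88 in DN3a cells. The γδ total of 618 became 330 without γδ Rptor-/- array 2 and 392, 274 and 342 without γδ WT arrays 1, 2 and 3, and the DN3a total of 221 became 121 and 88 without DN3a Rptor-/- arrays 1 and 2 and 98, 89 and 98 without DN3a WT arrays 1, 2 and 3.

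**Figure D4:**
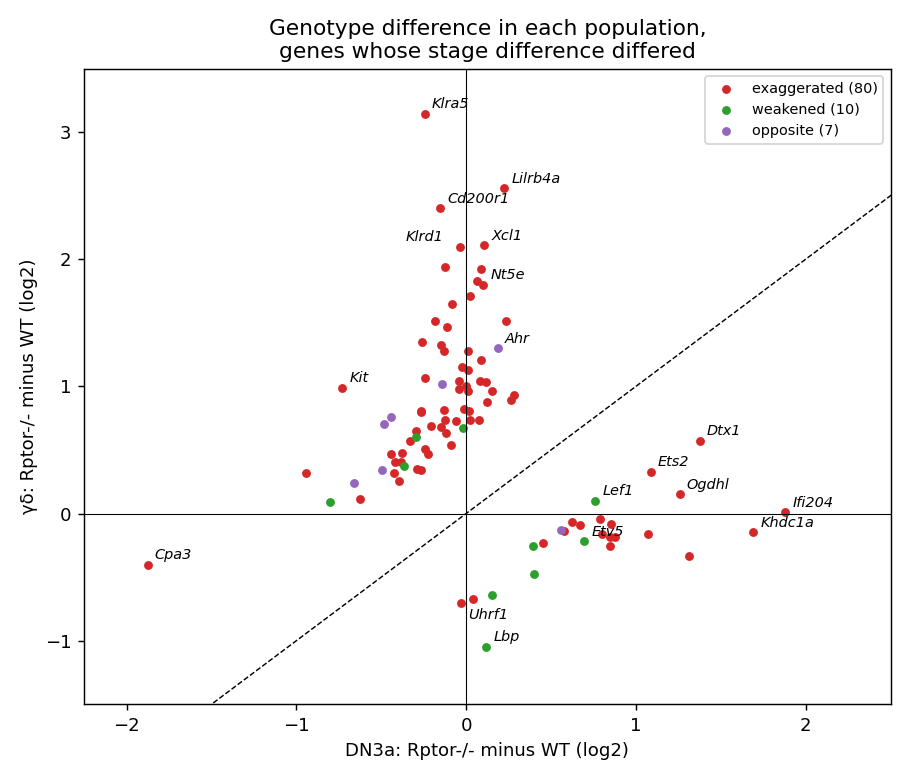
Genotype difference (Rptor-/- minus WT, log2) in DN3a cells on the horizontal and in γδ cells on the vertical axis for the 97 genes with a called difference of the stage contrasts, with equality as a dashed line. Genes such as Klra5 and Xcl1 lie along the vertical axis, Ifi204 and Tnfrsf8 along the horizontal axis, and Cpa3 and Kit left of 0.

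The difference of the stage contrasts was below 0 for nearly all cell cycle genes, with 1 called gene. Over all 22180 genes it was below 0 for 11638. Genes of a list share the same arrays and are not independent. Of 38 S phase and DNA replication genes, 32 were lower and 1 higher in γδ than in DN3a Rptor-/- cells (median −0.76), against 19 lower and 1 higher in WT (median −0.39). The difference was below 0 for 38 of 38 genes, with a median of −0.33 (−0.42 to −0.21 with 1 array left out). It was called for Uhrf1 alone (13 at an unadjusted limma p under 0.05). The helicase subunit Mcm2 gave −0.84 and −0.41, a difference called only with a prior variance that follows the mean (limma adjusted p = 0.165, there 0.0295), and Mcm10 −0.85 and −0.21. The mean log2 level of the list was 9.04, 9.25 and 9.43 in DN3a and 8.43, 8.54 and 8.70 in γδ Rptor-/- arrays, and 9.35, 9.42 and 9.57 and 9.05, 9.10 and 9.07 in WT. The γδ Rptor-/- arrays were lowest and did not overlap γδ WT, whereas DN3a arrays of the genotypes overlapped. Within γδ cells 24 of the 38 were lower without Raptor and in DN3a cells none was called in either direction. The 24 became 13 without γδ WT array 2 and 13 without γδ WT array 3.

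Of 37 G2/M and mitosis genes, 4 were lower and 3 higher in γδ Rptor-/- cells (median −0.20), and 7 were higher and none lower in WT (median 0.22). The difference was below 0 for 36 of 37 genes, with a median of −0.43 (−0.62 to −0.30 with 1 array left out). None was called by limma (10 at an unadjusted p under 0.05). The mean level of the list was 7.99, 8.42 and 8.60 in DN3a and 7.93, 8.18 and 8.35 in γδ Rptor-/- arrays, which overlapped, and 8.32, 8.66 and 8.65 and 8.58, 8.89 and 8.85 in WT. Array 1 was the lowest in each of the 4 groups. Prc1, a spindle midzone protein, gave −0.83 and −0.23, and Dlgap5, a spindle factor, −0.43 and 0.25. The 4 lower genes became 15, 2 and 0 without DN3a Rptor-/- arrays 1, 2 and 3 and 1 without γδ Rptor-/- array 1, and the 7 higher genes of WT became 4 without DN3a WT arrays 1 or 2 or γδ WT arrays 2 or 3.

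In the main fit, none of the gene lists for processes that mTORC1 drives held a called difference of the stage contrasts. The fatty acid desaturase Fads2 passed under 4 alternatives. With 1 array left out, at most 1 fatty acid gene and at most 1 oxidative phosphorylation gene had a called difference. Of the 41 measured genes for ribosome assembly and MYC targets, 33 were lower and 1 higher without Raptor (median −0.39). In WT 36 were lower and none higher (median −0.51). Of the 41, 33 were kept, 27 of them with the interval within 1.5-fold. Myc itself gave −1.30 (SE 0.09) and −1.68 (SE 0.09) (difference 0.37 (SE 0.12), limma adjusted p = 0.324). None of the 41 had a called difference, and 5 were positive at an unadjusted limma p under 0.05. Of 20 cholesterol synthesis genes, 15 were lower and none higher (median −0.68), against 14 lower and 1 higher in WT (median −0.66), with no called difference (1 negative at an unadjusted p under 0.05 by limma). Within γδ cells, 2 of the 20 were called lower and none higher without Raptor (0 to 2 lower with 1 array left out). In DN3a cells 1 of the 20 was called higher. Of the 41 genes above, none was called lower and 1 higher in γδ cells. Sqle, squalene epoxidase, gave −1.98 and −1.76.

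Of 19 fatty acid synthesis genes, 6 were lower and 2 higher without Raptor and 7 and 1 in WT. The 2 higher genes became 0 without DN3a Rptor-/- arrays 1 or 3 or γδ Rptor-/- array 1 and 1 without γδ Rptor-/- arrays 2 or 3, any 1 DN3a WT array or γδ WT array 1. The desaturase Fads2 gave −3.41 (SE 0.12) and −2.61 (SE 0.12). Its DN3a arrays read 11.47, 11.58 and 11.53 in Rptor-/- and 11.38, 11.50 and 11.40 in WT, and its γδ arrays 7.95, 7.97 and 8.42 and 8.60, 8.98 and 8.85. Its difference of −0.80 (SE 0.17) was not called (limma adjusted p = 0.0709), but was with 19 arrays (0.020), quantile scaling (0.0474), the filter on low signal (0.0435) and a prior variance that follows the mean (0.0169). Of 21 glycolysis genes, 8 were lower and 4 higher without Raptor and 5 and 5 in WT. Of 46 oxidative phosphorylation genes, 12 were lower and 1 higher without Raptor (median −0.09), against 5 and 5 in WT (median 0.03). The difference was below 0 for 40 of the 46, beside 11638 of all 22180 genes. The 5 higher genes of WT became 2 without DN3a WT array 1 or γδ WT array 1 and 3 without γδ WT array 2, and the 5 lower genes 2 without DN3a WT array 3 or γδ WT arrays 1 or 2 and 3 without DN3a WT array 2 or γδ WT array 3. No gene of these 3 lists had a called difference in the main fit. At an unadjusted limma p under 0.05 there were 4 negative fatty acid genes, 1 positive and 3 negative glycolysis genes and 10 negative oxidative phosphorylation genes. Within γδ cells, 3 of the 19, 4 of the 21 and 2 of the 46 were called lower without Raptor, and none higher. Over all genes 0.996% were lower and 1.79% higher. With 1 array left out the lower counts ran from 1 to 3, 0 to 4 and 0 to 3. In DN3a cells 1 fatty acid gene was called higher, and no other gene of these lists was called. Of 39 genes of the mTOR complexes and their regulators, 10 were higher and 4 lower without Raptor and 10 and 5 in WT, none with a called difference (4 positive and 4 negative at an unadjusted limma p under 0.05).

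The mean level of interferon response genes was higher without Raptor in both populations. Of 35 measured, 10 were higher and 9 lower in γδ than in DN3a Rptor-/- cells, and 10 and 5 in WT. The difference was called for Ifi204 and Ifitm3, both negative, and Ifitm3 was lost without 7 of the 12 arrays, as given above. The mean level of the list was 8.02, 8.10 and 8.15 in DN3a Rptor-/- against 7.73, 7.67 and 7.53 in DN3a WT, and 8.05, 8.09 and 8.09 in γδ Rptor-/- against 7.90, 7.85 and 7.73 in γδ WT. Rptor-/- arrays were above WT in each population without overlap. Within DN3a cells 11 of 35 were higher without Raptor, which became 7 without DN3a Rptor-/- array 2 or DN3a WT array 2 and 5 without DN3a WT array 3. Within γδ cells 7 of 35 were higher, which became 3 without DN3a Rptor-/- array 2, 4 without DN3a WT array 2, γδ Rptor-/- arrays 2 or 3 or γδ WT arrays 1 or 2, and 1 without γδ WT array 3. The mean of the dissociation and heat shock list moved in the same direction, 8.66 to 8.76 in DN3a Rptor-/- against 8.26 to 8.51 in DN3a WT and 8.82 to 8.99 in γδ Rptor-/- against 8.52 to 8.80 in γδ WT, and its part in the results was not tested.

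Genes of the αβ branch showed 1 called difference, Lef1, among 19 measured, with 5 higher and 8 lower in γδ cells without Raptor and 8 higher and 7 lower in WT. Both gates select CD8- cells. Cd8b1, a chain of the CD8 coreceptor, read 6.51, 6.52 and 6.61 in DN3a and 6.39, 7.38 and 7.50 in γδ Rptor-/- arrays, and 7.09, 7.05 and 7.87 and 8.81, 8.85 and 8.75 in WT. Its stage difference was 0.54 (SE 0.24) against 1.47 (SE 0.24), with a difference of −0.93 (SE 0.35) that was not called (limma adjusted p = 0.405). The mean of the mature αβ and double-positive markers was 6.00 to 6.21 in γδ Rptor-/- and 6.52 to 6.66 in γδ WT arrays, and 5.67 to 5.73 and 5.79 to 6.06 in DN3a arrays, and its part in the results was not tested. The myeloid gene Lyz2 was higher in DN3a Rptor-/- than in DN3a WT (1.04 (SE 0.18), limma adjusted p = 0.0111, not called without DN3a Rptor-/- array 2 or DN3a WT arrays 1 or 3, up to 0.0683), while the mean of the myeloid markers was 5.60 to 5.71 and 5.60 to 5.69 in these groups.

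Of the remaining lists, 15 of 29 cytokine receptor and STAT regulator genes were higher and 4 lower in γδ Rptor-/- cells (12 and 3 in WT), with Il10rb the 1 called difference. Of 31 chemokine receptor, adhesion and exit genes, 22 were higher and 3 lower in each genotype, with Cxcr6 the 1 called difference. Ccr2, a chemokine receptor of IL-17-producing cells, gave 0.72 (SE 0.16) against 1.57 (SE 0.16), which was not called as different (limma adjusted p = 0.178). Of 24 T-cell commitment factors, 13 were higher and 6 lower without Raptor and 14 and 6 in WT, with Zbtb16 exaggerated upwards, Ets2 exaggerated downwards and Lef1 weakened.

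Of 29 proximal TCR signalling genes, 14 were higher and 10 lower without Raptor and 13 and 8 in WT, with no called difference (2 positive and 4 negative at an unadjusted limma p under 0.05). The kinase Zap70 gave 2.23 and 2.24. The ATF4 and amino acid list (28 genes), the Bcl2 family (22) and the stress list (22) had no called difference, with 2 positive and 1 negative, 1 positive and 0 negative, and 2 positive and 1 negative genes at an unadjusted limma p under 0.05. Pck2, named outside the ranking, is not in the ATF4 list and had a called negative difference. That call was lost with median centring (−0.64, limma adjusted p = 0.0664) and with the replicate block (−0.68, 0.0674).

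**Figure D5:**
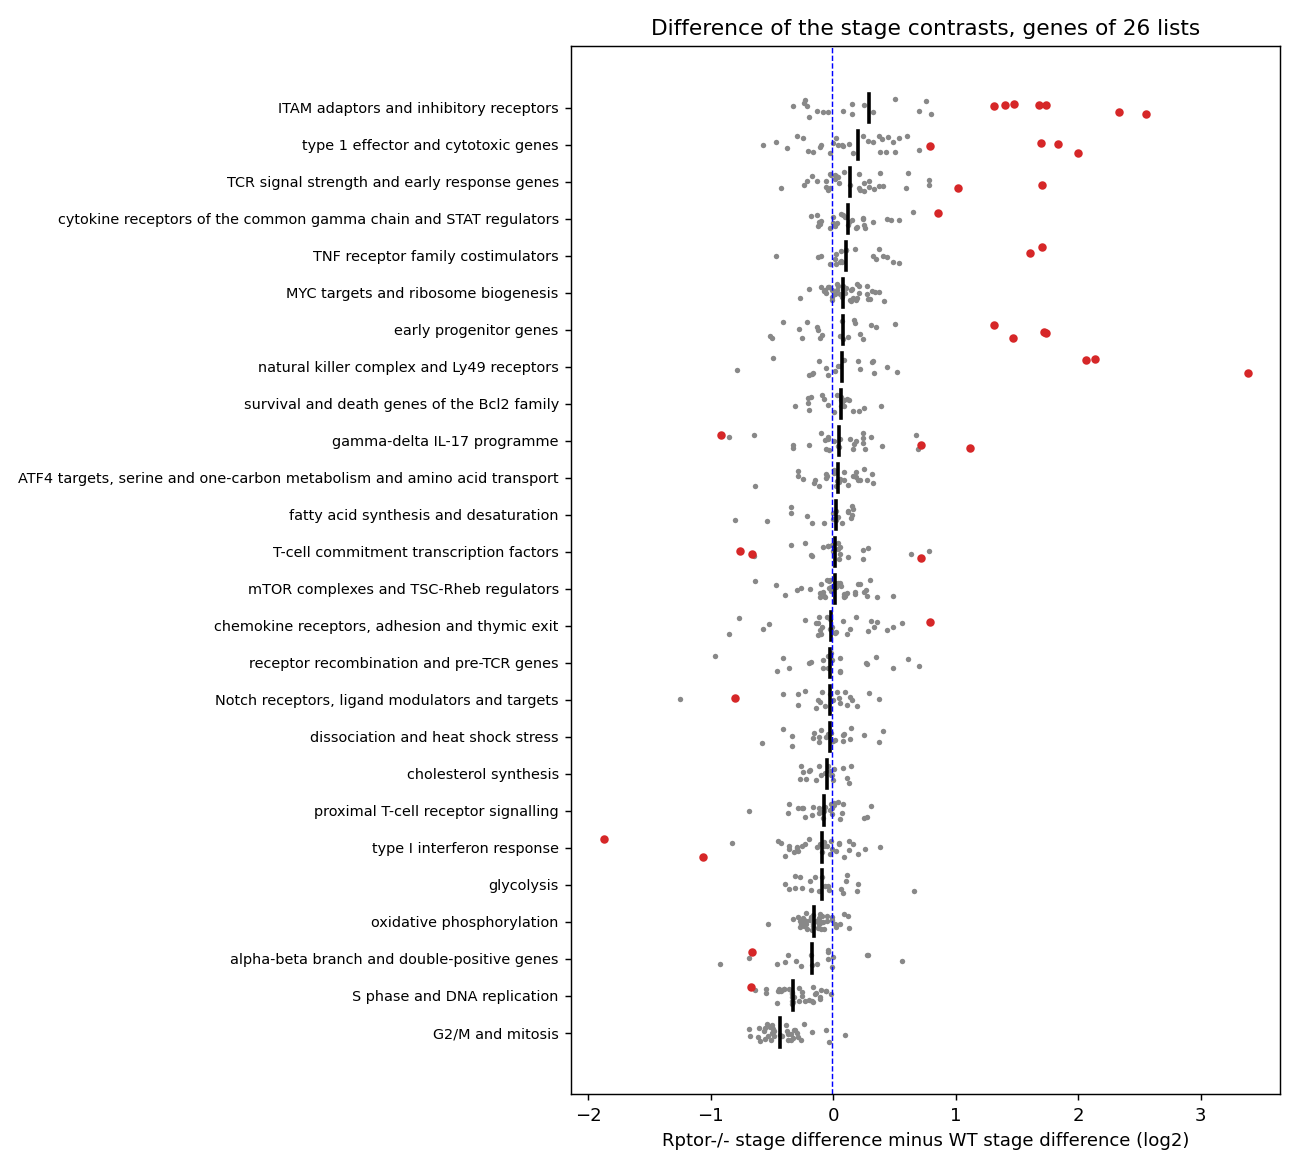
Difference of the stage contrasts (Rptor-/- minus WT, log2) for the measured genes of 26 lists, with each list's median as a black bar, called genes in red and the median of all genes as a dashed line. The ITAM adaptor and inhibitory receptor list has the most called genes (7), and the S phase and G2/M medians, −0.33 and −0.43, are the lowest. The lists were chosen with earlier results of these data known.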

How the data were processed

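RNA of sorted thymocytes (12 ng) was hybridised to Affymetrix mouse arrays, per the labels' protocols. The deposited values are log2 signals that the authors made with RMA in Partek 6.6, per the submitters' processing notes. From their medians of 6.03 to 6.13, the DN3a and γδ arrays were taken to share 1 normalization, and the ISP arrays, on another scale, were not used except in 1 alternative.

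Of 41345 probe sets, 23521 name 1 gene, 1814 several and 16010 none, and 23328 symbols were updated through Entrez IDs. For 1082 genes with several probe sets the brightest was kept, leaving 22180 genes. Limma 3.58.1 in R 4.3.3 fitted 4 group means over 12 arrays, with Benjamini-Hochberg adjustment over all genes and calls at 0.05. An adjusted p above 0.05 is written as not called. A stage difference was kept where both genotypes were called in 1 direction and their difference was not. It was exaggerated or weakened where the difference was called and Rptor-/- was larger or smaller, and opposite where the signs differed. The script was tested on simulated data. The precision is limited by 3 arrays a group.

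The genes named are Rptor, those with the largest stage differences, the largest differences in each class, the leading genes of each list and the markers, with exceptions marked in the text. Predicted genes and small RNAs were passed over. Members and lists were chosen with earlier results of these data known. The alternatives changed the arrays fitted, scaling, filter, variance model, weights, fold minimum, replicate block and each array in turn.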

Additional observations from a re-analysis of the deposited data

Results flagged for a closer look

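The stage difference, γδ minus DN3a, differed between Rptor-/- and WT for 97 genes by the interaction test of limma over 12 arrays, and these genes are listed for that reason. The 4 groups compared hold 3 arrays each, too few to test a single array for standing apart, and the ISP arrays were not tested. Among the natural killer complex and inhibitory receptors, the difference of the stage contrasts was 3.39 for Klra5, 2.14 for Klrd1, 2.06 for Klrh1, 2.55 for Cd200r1 and 2.34 for Lilrb4a. Among secreted factors and enzymes it was 2.0 for Xcl1, 1.84 for Ccl5 and 1.76 for Adh1. These values stand with γδ levels that were higher without Raptor.

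Values below 0, where the γδ level relative to DN3a was lower without Raptor, were −1.87 for Ifi204, −1.84 for Khdc1a, −1.65 for Khdc1c, −1.24 for Tnfrsf8, −1.10 for Ogdhl, −1.07 for Ifitm3, −1.04 for Vwce and −0.94 for Myof. Among weakened stage differences they were −1.17 for Lbp, −0.91 for Etv5, −0.87 for Krt222, −0.80 for Syt13, −0.66 for Lef1 and −0.64 for Lipa. Where the stage difference changed sign, the values were 1.19 for Sntb1, 1.16 for Adamtsl2, 1.12 for Ahr and −0.69 for Ttyh2.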

How the results depend on the processing

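No called stage difference in Rptor-/- or called difference of the stage contrasts of a named gene changed sign under the alternatives run. The balance of higher and lower stage calls did turn with the scaling, as given with those counts. The counts also moved. The 10 weakened stage differences became 26 with all 19 arrays in 1 model, 24 with the filter on low signal, 34 with a prior variance that follows the mean, 17 with array quality weights and 1 with a 2-fold minimum, and 2 to 20 with each array left out. The 97 calls of the difference became 151 with a prior variance that follows the mean, 43 with a 2-fold minimum and 52 to 120 with each array left out. Exaggerated genes went from 80 to 38 with a 2-fold minimum and to 45 to 99 with each array left out, and 70, 78 and 66 of the 80 stayed exaggerated with 19 arrays, median centring and quantile scaling. Genotype calls in γδ cells went from 618 to 994 with the filter on low signal, 1001 with a prior variance that follows the mean, 44 with a 2-fold minimum and 274 to 733 with each array left out. In DN3a cells they went from 221 to 365 with a prior variance that follows the mean, 31 with a 2-fold minimum and 88 to 227 with each array left out. With a 2-fold minimum the stage calls were 1006 in Rptor-/- and 899 in WT, and 731 differences were kept. With each array left out, the stage calls were 5168 to 6393 in Rptor-/- and 4530 to 5674 in WT, and 3668 to 4113 were kept. Each genotype fitted on its own 6 arrays gave 4999 and 5832 stage calls and no value for the difference. The cause of these shifts was not tested, except that the 2-fold minimum removes smaller differences by construction.

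The main fit did not pair arrays by replicate number. The deviations of same-numbered arrays correlated between −0.104 and 0.257, with 4 of 18 over 0.1. The highest were 0.257 for array 1 of DN3a and γδ Rptor-/-, and 0.24 for array 1 of DN3a Rptor-/- and WT. Whether same-numbered arrays share a batch was not tested. With the replicate block the difference had 99 calls, the stage contrasts 6286 and 5619, and 4287, 13 and 75 genes were kept, weakened and exaggerated. In the G2/M list the block gave 16 genes lower in γδ Rptor-/- cells in place of 4 and called the difference of Dlgap5 (−0.68, limma adjusted p = 0.0248). It also called that of Uaca (0.00767), left Mir181a-2 uncalled (0.0621), and gave 11 opposite genes in place of 7. Signals near 4 log2 units, as for Klra5 and Ifi204 outside their high group, are close to the lowest of the array, so their differences may be understated.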
